A study of Mus musculus with 14 samples.

Results

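The genes described here encode the proteins of the cytosolic ribosome. They were taken by symbol, as every Rps or Rpl symbol with a number, together with Rpsa, Rplp0, Rplp1 and Rplp2, and without pseudogene symbols or the Rps6k kinases. The rule found 84 of the 21878 genes in the count table, 32 of them Rps symbols (Rpsa included) and 52 Rpl symbols (the Rplp genes included). Of the 84 members, 80 passed the filter on low counts and were tested, namely 31 core proteins of the small subunit, 46 of the large subunit and 3 minor paralogs. The 4 members that did not pass were paralogs too, with 29 counts over all 14 libraries for Rpl32l, 9 for Rpl3l, 7 for Rpl39l and 0 for Rpl10l. Rps4l was not analysed here.

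The libraries were made from mRNA of C57BL/6 mouse liver hepatocytes in 7 groups with 2 libraries in each. There were BM hepatocytes at 1 day (BM 1D), at 3 days (BM 3D) and at 3 weeks (BM 3W), BM hepatocytes labelled Yap-/- at 3 weeks (BM 3W Yap-/-), LBDXL hepatocytes at 3 weeks (LBDXL 3W), freshly isolated hepatocytes labelled Yap-/- (FH Yap-/-) and freshly isolated hepatocytes (FH). BM and LBDXL are the labels of the culture conditions and are not expanded there, and the series title places the study in hepatocyte maintenance in vitro with restraint of tension-induced YAP activity. The labels give neither the age of the mice nor the way or the cells in which Yap was deleted. Nor do they say if both libraries of a group stem from different animals or cultures. The p-values here set a difference against a spread between libraries that may therefore be technical. That spread is taken per gene over all 7 groups together, and not from the compared groups alone.

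A cytosolic ribosome carries a fixed set of proteins, most of them present in equal number, on the ribosomal RNA of a small subunit that reads the mRNA and a large subunit that joins the amino acids. Most ribosomal protein mRNAs begin with a C followed by a run of pyrimidines, the terminal oligopyrimidine tract, through which mTORC1 and the RNA-binding protein LARP1 set their translation and stability together. In liver, ribosome production is known to rise when hepatocytes leave quiescence, as after partial hepatectomy.

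The sequences around the annotated starts show how far the tract can be read in these genes. RefSeq tables of the GRCm38.p6 build held a start for 64 of the 84 members. A window of 30 bases, 15 before and 15 from the start, was read only on the strand that has the sequence of the transcript. A run of a C followed by at least 4 letters that are each C or T was found in it for 43 of the 64 members, or 67.2%, against 40.2% of 26961 other genes. The start base itself was a C followed by 4 such letters for 14 of the 64 members, or 21.9%, against 2.96% of other genes. The run could begin before that base, as it did in Rpl14. Windows of some members named below are shown 5′ to 3′ with the longest run in capitals. A window without a run says only that these letters are not in it.
Rpl12, chr2:32961697-32961726, plus strand: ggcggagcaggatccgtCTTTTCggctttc
Rpl14, chr9:120571502-120571531, plus strand: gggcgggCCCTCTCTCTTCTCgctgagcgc
Rps12, chr10:23787195-23787224, minus strand: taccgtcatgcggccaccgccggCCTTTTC
Rps6, chr4:86857353-86857382, minus strand: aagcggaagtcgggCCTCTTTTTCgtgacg
Rpl28, chr7:4792950-4792979, plus strand: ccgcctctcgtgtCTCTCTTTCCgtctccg
Rpl35a, the second of its 3 annotated starts, chr16:33056467-33056496, plus strand: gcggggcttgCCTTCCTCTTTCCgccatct
Rps27, chr3:90213634-90213663, minus strand: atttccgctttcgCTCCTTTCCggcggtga
Rps27l, chr9:66946071-66946100, plus strand: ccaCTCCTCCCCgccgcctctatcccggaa
Rpl22l1, chr3:28805493-28805522, plus strand: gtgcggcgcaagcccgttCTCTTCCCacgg
Rpl7l1, chr17:46782642-46782671, minus strand: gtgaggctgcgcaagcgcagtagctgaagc
Rpl12, Rpl14 and Rps12 are shown because they rose at 1 day under every alternative tried, and Rps6 as the substrate of the S6 kinases. Rpl28, Rpl35a and Rps27 are shown as core members that fell in some comparisons. Rps27l, Rpl22l1 and Rpl7l1 are the tested paralogs, and of these windows only that of Rpl7l1 held no run. The windows of Rpl5, Rpl11, Rplp0, Rpsa, Rps3, Rpl24 and Rps25, which are also named below, are not shown and held no run. Nor did those of the other annotated starts of Rps27l and Rpl35a.

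Total counts per library were between 15501005 and 21220365. Yap1, the deleted gene, had 23.1 and 26.5 CPM (counts relative to a library total rescaled by TMM, which aligns the bulk of genes between libraries) in FH Yap-/- against 87.6 and 97.6 in FH. Its log2 fold change was -1.90 (adjusted p = 0.0013, edgeR quasi-likelihood test). In BM 3W Yap-/- it had 6.66 and 7.75 CPM against 80.2 and 95.5 in BM 3W (log2 fold change -3.61, adjusted p = 2.55e-05, edgeR). All 10 hepatocyte markers were detected in every group. Their summed level was 35600 and 4890 CPM in BM 3W against 240000 and 236000 in FH. The 10 stellate and fibroblast markers summed to 11000 and 15000 CPM in BM 3W against 77 and 62.9 in FH. The TMM factors were between 0.648 and 1.69, so that the scaling moves every CPM and fold change between FH and cultured libraries, and values with no scaling are given beside them.

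The first pattern inside the family followed the library number and not the group. Each member was expressed as its share of the counts of all members in its library, and library 2 was set against library 1 of the same group. The share of Rps29, a small zinc-binding protein of the small subunit, was higher in library 2 by 0.88 (log2) in BM 1D, 0.34 in BM 3D, 1.77 in BM 3W, 2.25 in BM 3W Yap-/- and 2.0 in LBDXL 3W. Rplp1, an acidic protein of the stalk, was higher in library 2 by 0.77, 0.25, 1.43, 1.88 and 1.37 in the same order. The share of Rps24, a small-subunit protein needed for rRNA maturation, differed by -0.56, -0.42, -0.93, -1.18 and -0.85 in that order. So Rps29 and Rplp1 were higher, and Rps24 lower, in library 2 of all 5 cultured groups.

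Over the family, 26 of the 80 members had a larger share in library 2 in all 5 cultured groups, among them Rps19, Rps20 and Rpl22l1, and 15 had a larger share in library 1 in all 5, among them Rpl35, Rps26, Rpl21, Rpl23 and Rps6. Across the 80 members, the library 2 minus library 1 differences of any pair of cultured groups had a Pearson r between 0.33 and 0.97 over 10 pairs of groups, and between -0.18 and 0.19 for a cultured with a fresh group. The median size of the difference was 0.18 to 0.31 in the cultured groups, against 0.09 in FH Yap-/- and 0.07 in FH, and no member differed by more than 0.39 in a fresh group. The r of the difference with the GC content of the main transcript was between 0.09 and 0.23 in the cultured groups (80 members; the members share their libraries, so r is a description). The cause was not tested, and the labels name no batch. Genes with this pattern, such as Rps29 and Rplp1, had wide errors in every comparison. The fit takes a gene's spread over all groups together, so this held in FH Yap-/- against FH too. There the standard error was 0.85 for Rps29 and 0.70 for Rplp1.

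**Figure D1:**
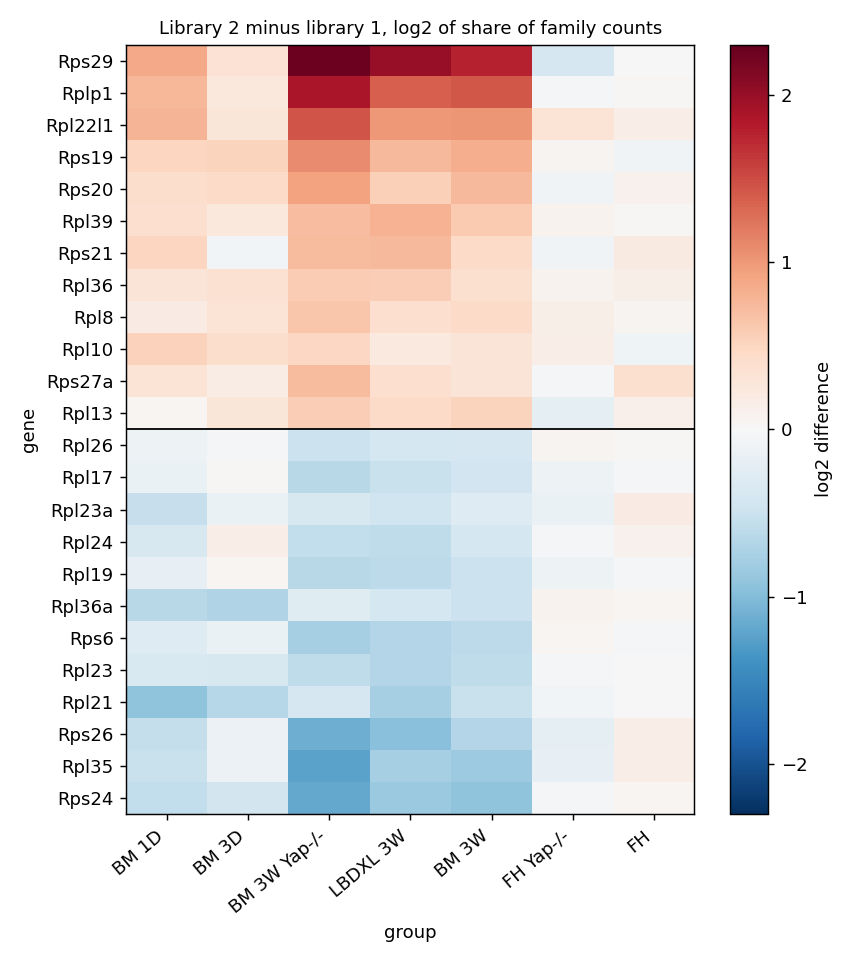
Library 2 minus library 1 difference in log2 share of the family's counts, as a colour scale, for 24 members (rows, the 12 with the highest and the 12 with the lowest mean over cultured groups) in 7 groups (columns). Rps29 reaches 2.25 in BM 3W Yap-/- and Rps24 -1.18, while no member passes 0.39 in either direction in FH Yap-/- or FH.

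The share of all counts that fell on the members needs no scaling factor. BM 1D libraries had 2.75 and 2.88%, BM 3D libraries 2.34 and 1.76%, and BM 3W libraries 1.90 and 2.34%. BM 3W Yap-/- libraries had 1.26 and 1.68%, LBDXL 3W libraries 1.23 and 1.35%, FH Yap-/- libraries 0.856 and 0.862%, and FH libraries 0.877 and 0.898%. Every cultured library thus held a larger share of ribosomal protein reads than every fresh one, and both BM 1D libraries stood above all others. In bulk samples fewer cells of a type and less RNA per cell cannot be told apart, and the share also moves with a few very abundant mRNAs. Alb alone took between 0.482% of counts in library 2 of BM 3W and 17.3% in library 1 of LBDXL 3W.

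On the TMM scale the members summed to 22500 and 23200 CPM in BM 1D libraries, 17200 and 15400 CPM in BM 3D libraries and 12700 and 13800 CPM in BM 3W libraries. BM 3W Yap-/- libraries had 12500 and 16200 CPM, LBDXL 3W libraries 13300 and 15500, FH Yap-/- libraries 12500 and 12500, and FH libraries 13500 and 13800. Here only BM 1D and BM 3D lay wholly above FH, and the BM 3W libraries lay at or below it. The large and small subunits moved together, with a ratio of large-subunit to small-subunit counts between 1.41 and 1.54 in all 14 libraries. The members are a chosen list, so these sums are a description without a test.

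**Figure D2:**
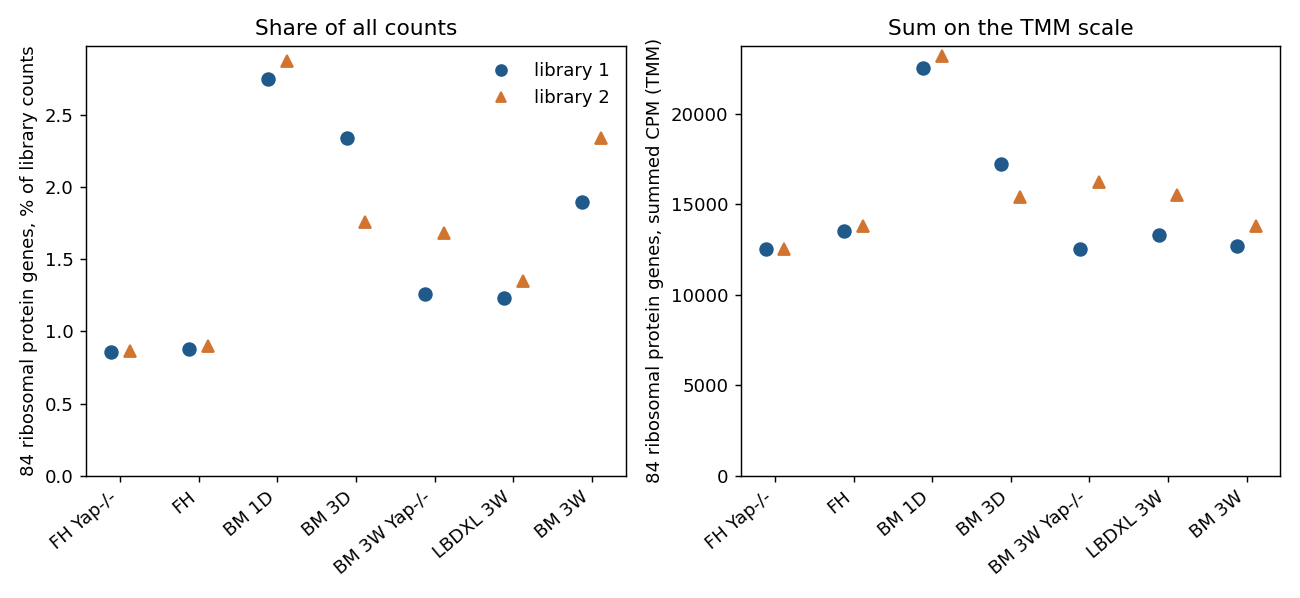
Reads on the 84 members in each library, as a percent of all counts (left) and as summed TMM-scaled CPM (right), by group on the x axis; circles are library 1 and triangles library 2. BM 1D is highest in both panels, while the 3-week groups lie above FH as a percent of counts and overlap or adjoin it in CPM.

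In BM 1D against FH, ribosomal protein genes rose together, in both subunits. Of the 80 tested members 47 rose and 0 fell at an adjusted p of 0.05 (edgeR quasi-likelihood test, Benjamini-Hochberg over 14100 genes), while 23.6% of all tested genes rose and 20.2% fell. The median log2 fold change was 0.75 for the members and 0.17 for all genes, and 79 of 80 members lay above 0. The libraries did not overlap for 78 members, all higher in BM 1D, where 41% of all genes lay wholly higher and 34.2% wholly lower. In the small subunit 18 of 31 core proteins rose with a median of 0.84, and in the large subunit 29 of 46 rose with a median of 0.72.

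In the small subunit, Rps20, a protein of the head, had the largest rise, with 155 and 212 CPM in BM 1D against 62 and 68.1 in FH. Its log2 fold change was 1.50 ± 0.42 (SE; adjusted p = 0.0151, edgeR). Rps19, mutated in Diamond-Blackfan anaemia in humans, had 126 and 182 CPM in BM 1D against 61.4 and 59.4 in FH (1.35 ± 0.48, adjusted p = 0.0394, edgeR). Both genes were higher in library 2 than in library 1 of BM 1D, and both libraries of each lay above FH.

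Rps12, a protein of the small-subunit head, was more even, with 207 and 214 CPM in BM 1D against 84.5 and 82.4 in FH (1.34 ± 0.19, adjusted p = 0.000328, edgeR). Rpsa, the laminin-receptor homologue at the back of the small subunit, had 848 and 921 CPM in BM 1D against 507 and 484 in FH (0.84 ± 0.25, adjusted p = 0.0195, edgeR). Rps3, which lines the mRNA entry and also has DNA-repair activity, had 393 and 454 CPM in BM 1D against 224 and 211 in FH (0.96 ± 0.23, adjusted p = 0.00658, edgeR). Rps6, the S6 kinase substrate read as a marker of mTORC1 activity, had 665 and 561 CPM in BM 1D against 449 and 448 in FH, with no overlap but no call (0.45 ± 0.28, adjusted p = 0.213, edgeR).

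In the large subunit, Rpl12, at the base of the stalk where translation factors bind, led with 312 and 382 CPM in BM 1D against 129 and 134 in FH. Its log2 fold change was 1.40 ± 0.19 (adjusted p = 0.000257, edgeR). Rpl5 and Rpl11, which carry the 5S rRNA and bind MDM2 when ribosome assembly fails, also rose. Rpl5 had 548 and 560 CPM in BM 1D against 287 and 285 in FH (0.95 ± 0.21, adjusted p = 0.00365, edgeR). Rpl11 had 309 and 328 CPM in BM 1D against 207 and 220 in FH (0.58 ± 0.20, adjusted p = 0.0393, edgeR).

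The stalk itself is built of Rplp0 and the pair Rplp1 and Rplp2, which recruit elongation factors. Rplp0 had 681 and 735 CPM in BM 1D against 364 and 363 in FH (0.96 ± 0.32, adjusted p = 0.0313, edgeR). Rplp2 had 198 and 151 CPM in BM 1D against 81.0 and 85.9 in FH (1.06 ± 0.32, adjusted p = 0.0203, edgeR). Rplp1 had 175 and 307 CPM in BM 1D against 107 and 112 in FH, and did not pass the test with its wide error (1.14 ± 0.71, adjusted p = 0.217, edgeR). All 3 stalk genes lay wholly above FH.

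The lowest fold change at 1 day was that of Rps27l, a p53 target and paralog of Rps27, with 75.6 and 108 CPM in BM 1D against 91.4 and 101 in FH. It overlapped with FH and was the only member below 0 (-0.07 ± 0.29, adjusted p = 0.878, edgeR). Rpl35a, also mutated in Diamond-Blackfan anaemia in humans, had the next lowest, with 81.1 and 87.0 CPM in BM 1D against 77.5 and 76.7 in FH (0.12 ± 0.20, adjusted p = 0.638, edgeR). Cholangiocyte markers summed to 367 and 235 CPM in BM 1D against 29.8 and 24.8 in FH, and 5 of 7 tested ones rose. Kupffer and macrophage markers summed to 134 and 343 CPM in BM 1D against 101 and 73.4 in FH, yet Cd68 was the 1 of 8 that rose and 4 fell, with a median of -1.44. Of 10 hepatocyte markers 8 fell, and of 10 stellate and fibroblast markers 3 fell and 0 rose. The part of these markers in the family's rise was not tested.

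Within each library number the members' median at 1 day was 0.75 for library 1 alone and 0.74 for library 2 alone. Since 78 members lay wholly above FH, this split could hardly come out otherwise and supports nothing. The count of rises fell to 26 without library 1 of BM 1D, 24 without library 2 of BM 1D, 13 without library 1 of FH and 10 without library 2 of FH, each of which leaves a lone library assumed to vary like the others. Under every alternative, 8 of the 47 were called, namely Rpl12, Rpl13a, Rpl14, Rpl5, Rps12, Rps15a, Rps23 and Rps7, of which Rpl13a, Rps23 and Rps7 are named after their values were seen.

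**Figure D3:**
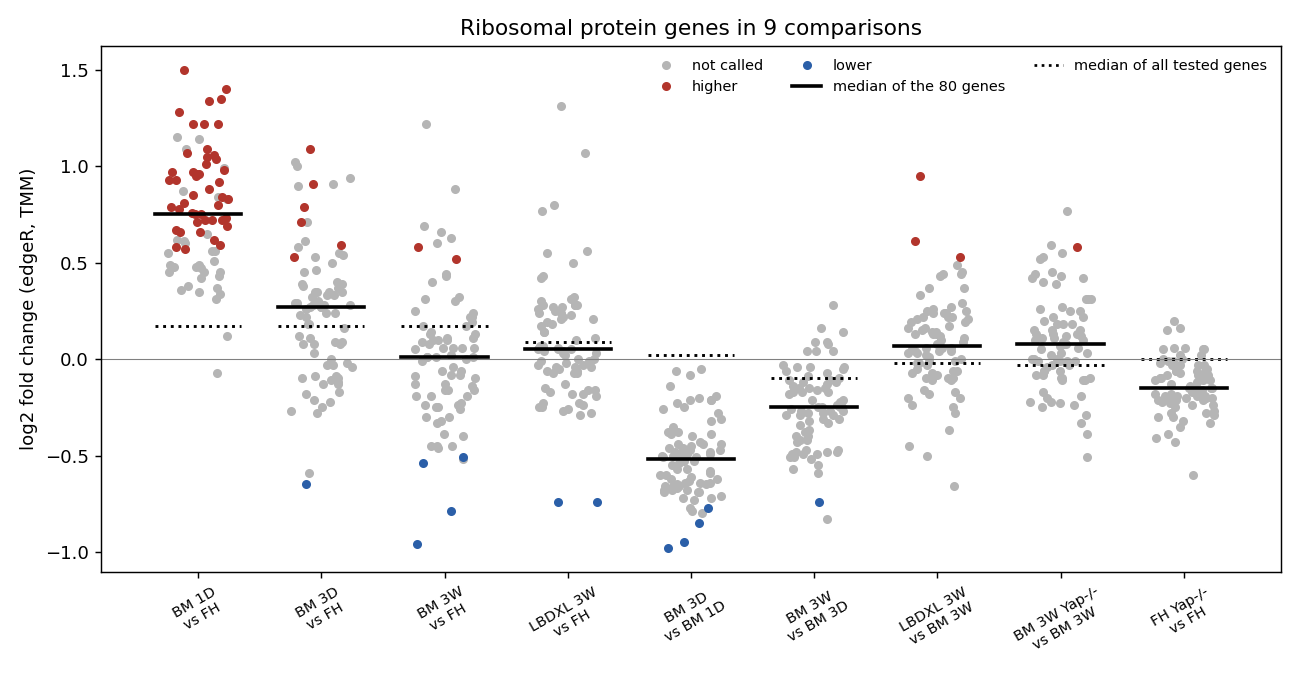
Log2 fold change of the 80 tested members (dots) in 9 comparisons; red dots rose and blue dots fell at an adjusted p of 0.05, the solid line is the median of the members and the dotted line the median of all genes. In BM 1D against FH the median of the members is 0.75 and that of all genes 0.17, and in BM 3D against BM 1D all 80 dots lie below 0.

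The scaling shifted all genes and the members alike. In BM 1D against FH the median of all genes was 0.17 under TMM and 1.08 with scaling to total counts, and that of the members 0.75 under TMM and 1.67 with total counts. The members stood above all genes by 0.58 under TMM, 0.58 under DESeq2 size factors and 0.59 under total counts. In BM 3D against FH the same distance was 0.10 under TMM, 0.10 under size factors and 0.11 under total counts. In BM 3W against FH it was -0.16 under all 3 scalings, and in LBDXL 3W against FH -0.05, -0.05 and -0.04. A change of library scaling moves every gene of a comparison by nearly the same amount, so this distance could hardly move and supports nothing. The number of rises depended on the scaling, with 79 members called higher at 1 day, 75 at 3 days and 78 at 3 weeks in BM under total counts, where 50.1% of all genes were called higher at 1 day, 53.7% at 3 days and 65.8% at 3 weeks.

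**Figure D4:**
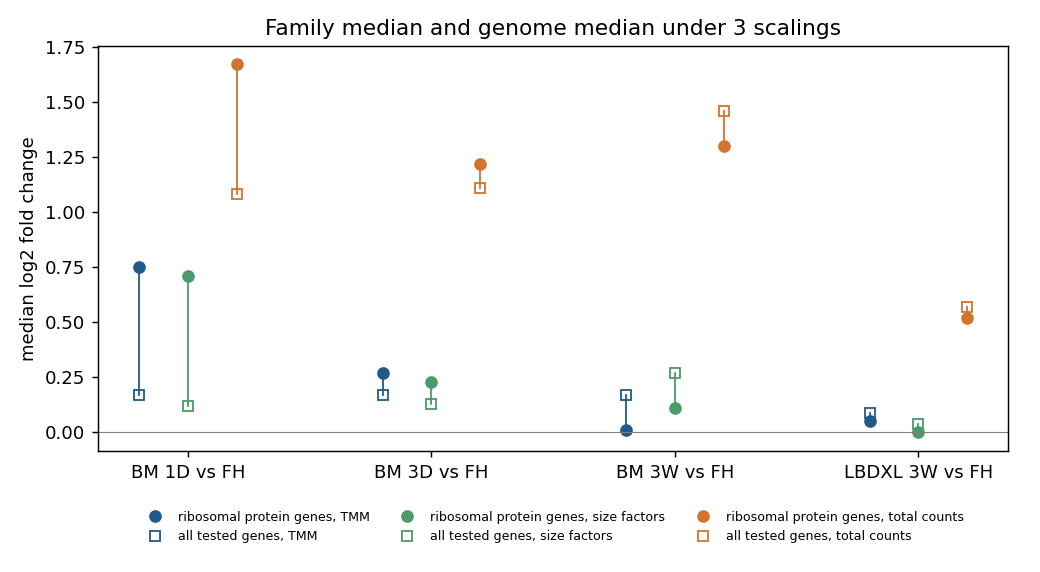
Median log2 fold change against FH of the members (filled circles) and of all tested genes (open squares) under TMM, DESeq2 size factors and total counts, for 4 comparisons. In BM 1D the members' median is 0.75 under TMM and 1.67 with total counts, and that of all genes 0.17 and 1.08; both shift together because a scaling moves all genes alike.

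In BM 3D against FH most of the family lay near FH. Of the 80 members 6 rose and 1 fell (edgeR, adjusted p of 0.05), where 22.5% of all genes rose and 17.9% fell, and the median was 0.27 for the members and 0.17 for all genes. The libraries of 47 members lay wholly above FH and those of 12 wholly below, where 41.5% and 33.5% of all genes did. Rps12 led, with 196 and 158 CPM in BM 3D against 84.5 and 82.4 in FH (1.09 ± 0.19, adjusted p = 0.00136, edgeR). Rplp0 had 749 and 622 CPM in BM 3D against 364 and 363 in FH (0.91 ± 0.32, adjusted p = 0.0407, edgeR). Rpl12 had 232 and 224 CPM in BM 3D against 129 and 134 in FH (0.79 ± 0.19, adjusted p = 0.00739, edgeR). The other 3 rises were Rpl15, Rpl14 and Rpl13a. In the same comparison 7 of 10 stellate and fibroblast markers and 6 of 7 cholangiocyte markers rose, 8 of 10 hepatocyte markers fell, and 1 of 8 Kupffer and macrophage markers rose and 5 fell. Their part in these values was not tested.

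Rpl35a fell at 3 days, with 45.8 and 52.8 CPM in BM 3D against 77.5 and 76.7 in FH (-0.65 ± 0.20, adjusted p = 0.0227, edgeR). With scaling to total counts its fold change was 0.29, since all genes shift upward. The rises numbered 2 without library 1 of BM 3D or without either FH Yap-/- library and 1 without either FH library, and the fall of Rpl35a was lost without library 1 of BM 3D or either FH library. Rps12 rose under every alternative. Fitted on BM 3D and FH alone, 12 members rose, where 23.7% of genes did.

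By 3 weeks in BM the family as a whole stood near the level of FH under TMM, and a few members departed from it. In BM 3W against FH 2 of 80 members rose and 4 fell (edgeR, adjusted p of 0.05), where 33% of all genes rose and 26.1% fell, with a median of 0.01 for the members and 0.17 for all genes. The libraries of 18 members lay wholly above FH and those of 24 wholly below, where 47.4% and 39.6% of all genes did. This comparison, like those at 1 and 3 days, uses the same FH libraries. The marker sums moved most here, with cholangiocyte markers at 4450 and 5170 CPM in BM 3W against 29.8 and 24.8 in FH and Kupffer and macrophage markers at 939 and 772 CPM against 101 and 73.4, beside the stellate and hepatocyte sums given above. All 7 tested cholangiocyte markers and all 10 stellate and fibroblast markers rose, and all 10 hepatocyte markers fell. Of 8 Kupffer and macrophage markers 6 rose and 2 fell. The part of these markers in the values of the ribosomal genes was not tested.

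Rps12 had 116 and 133 CPM in BM 3W against 84.5 and 82.4 in FH (0.58 ± 0.19, adjusted p = 0.0224, edgeR). Rpl12 had 185 and 192 CPM in BM 3W against 129 and 134 in FH (0.52 ± 0.19, adjusted p = 0.0367, edgeR). Both genes lay below their BM 1D values and wholly above FH.

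Rps27l had the largest fall, with 46.8 and 52.3 CPM in BM 3W against 91.4 and 101 in FH (-0.96 ± 0.29, adjusted p = 0.0158, edgeR). Rpl35a had 43.7 and 45.5 CPM in BM 3W against 77.5 and 76.7 in FH (-0.79 ± 0.20, adjusted p = 0.00548, edgeR). Rps25, which helps viral and cellular internal ribosome entry sites engage the ribosome, had 120 and 116 CPM in BM 3W against 175 and 168 in FH (-0.54 ± 0.21, adjusted p = 0.0441, edgeR). These 3 genes lay wholly below FH, as did Rpl7l1, the fourth fall (-0.51 ± 0.20, adjusted p = 0.0467, edgeR). With scaling to total counts the fold changes turned to 0.34 for Rps27l, 0.51 for Rpl35a and 0.75 for Rps25.

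The 2 rises at 3 weeks became 1 without library 1 of BM 3W, library 1 of BM 3W Yap-/- or either FH Yap-/- library, and 0 without library 2 of BM 3W or either FH library. The 4 falls became 2 without either FH Yap-/- library or library 1 of FH, and 1 without either BM 3W library or library 2 of FH.

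Set against the time point before, the family was lower at 3 days, and at 3 weeks its direction depended on the scaling. In BM 3D against BM 1D all 80 members lay below 0 with a median of -0.52, where the median of all genes was 0.02, and 64 members lay wholly below BM 1D and 0 wholly above, where 20.9% of all genes lay wholly below and 24.2% wholly above. The test called 4 members lower and 0 higher (edgeR, adjusted p of 0.05), where 1.6% of all genes fell and 3.67% rose. An unadjusted p under 0.05 was found for 33 of the 80 members and for 3142 of the 14100 tested genes (edgeR). Rpl24, which helps the subunits join, had 160 and 158 CPM in BM 3D against 347 and 279 in BM 1D (-0.98 ± 0.22, adjusted p = 0.0291, edgeR). Rps27, a zinc-finger protein of the small subunit, had 68.0 and 45.1 CPM in BM 3D against 119 and 99.8 in BM 1D (-0.95 ± 0.24, adjusted p = 0.0439, edgeR). Rpl28 had 143 and 138 CPM in BM 3D against 277 and 231 in BM 1D (-0.85 ± 0.19, adjusted p = 0.0311, edgeR). The fourth was Rpl35a (-0.77 ± 0.20, adjusted p = 0.0479, edgeR). Of 10 stellate and fibroblast markers 7 rose in BM 3D against BM 1D, and their part was not tested.

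Within each library number the members' median for the step from 1 to 3 days was -0.44 for library 1 and -0.60 for library 2. Since 64 members lay wholly below BM 1D, this split too could hardly come out otherwise. The count of calls varied with the libraries in the fit. It was 0 without library 1 of BM 1D, library 2 of BM 3D or any of the 4 fresh libraries, 1 without library 1 of BM 3D, and 2 without library 2 of BM 1D or either BM 3W library. Fitted on BM 3D and BM 1D alone, 0% of genes were called in either direction. DESeq2's Wald test called 30 members lower, where 4.29% of all genes were, and an edgeR fit with the library number as a block among cultured libraries called 19, where 4.17% of all genes were.

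In BM 3W against BM 3D the median was -0.25 for the members and -0.10 for all genes under TMM, and 0.10 for the members and 0.24 for all genes with total counts. Under TMM 38 members lay wholly below BM 3D and 0 wholly above, where 32.5% of all genes lay wholly below and 30.5% wholly above. Rpl7l1 alone fell and 0 members rose, where 10.9% of all genes fell and 13.5% rose. It had 41.1 and 47.7 CPM in BM 3W against 75.9 and 73.0 in BM 3D (-0.74 ± 0.20, adjusted p = 0.0211, edgeR). The call was lost without any BM 3D or BM 3W library or library 2 of FH, and 2 members were called lower without either LBDXL 3W library. In this comparison 9 of 10 stellate and fibroblast markers and 6 of 8 Kupffer and macrophage markers rose. Among the Kupffer and macrophage markers Clec4f fell (-3.21 ± 0.73, adjusted p = 0.0119, edgeR), and 4 of 10 hepatocyte markers fell. The part of these markers was not tested. The members' median differed by library number, with -0.40 in library 1 and -0.09 in library 2. DESeq2 called 5 members lower, where 10.5% of all genes were, and the block among cultured libraries 6, where 15.7% were.

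In LBDXL 3W hepatocytes the family lay near FH under TMM. In LBDXL 3W against FH 0 members rose and 2 fell (edgeR, adjusted p of 0.05), where 11.7% of all genes rose and 9.6% fell. The median was 0.05 for the members and 0.09 for all genes, and 18 members lay wholly above and 14 wholly below FH, where 34.2% and 29.4% of all genes did. Rpl35a had 38.7 and 53.8 CPM in LBDXL 3W against 77.5 and 76.7 in FH (-0.74 ± 0.20, adjusted p = 0.0227, edgeR). Rps27 had 49.9 and 52.6 CPM in LBDXL 3W against 86.1 and 84.6 in FH (-0.74 ± 0.24, adjusted p = 0.0493, edgeR). Both genes lay wholly below FH. The Kupffer and macrophage markers summed to 1.96 and 2.66 CPM in LBDXL 3W against 101 and 73.4 in FH, with Clec4f and Timd4 at 0 in both LBDXL libraries. Of these 8 markers 6 fell and 0 rose. Stellate and fibroblast markers summed to 464 and 243 CPM against 77 and 62.9, and 8 of 10 rose and 0 fell. Of 10 hepatocyte markers 1 fell and 0 rose, and of 7 tested cholangiocyte markers 0 were called. The part of these markers was not tested. Of the 2 falls 1 was left without any BM 1D, BM 3W or FH Yap-/- library or library 2 of LBDXL 3W, and 0 without either FH library or library 1 of LBDXL 3W. With total counts 11 members rose and 0 fell, where 25.5% of all genes rose and 5.84% fell.

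In LBDXL 3W against BM 3W 3 members rose and 0 fell, where 21.1% of all genes rose and 23.7% fell, and the median was 0.07 for the members and -0.02 for all genes. The libraries of 11 members lay wholly above BM 3W and those of 6 wholly below, where 34.7% and 38.3% of all genes did. Rps27l had 65.8 and 125 CPM in LBDXL 3W against 46.8 and 52.3 in BM 3W (0.95 ± 0.29, adjusted p = 0.0223, edgeR). Rpl7l1, a paralog of the large-subunit protein Rpl7, had 64.0 and 71.5 CPM in LBDXL 3W against 41.1 and 47.7 in BM 3W (0.61 ± 0.20, adjusted p = 0.029, edgeR). Rpl7a, a core protein of the large subunit, had 239 and 269 CPM in LBDXL 3W against 181 and 170 in BM 3W (0.53 ± 0.19, adjusted p = 0.0447, edgeR). All 3 lay wholly above BM 3W, and 2 of the 3 belong to the 3 tested paralogs.

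These calls rested on single libraries and on the scaling. The 3 rises became 0 without either BM 3W library or library 2 of LBDXL 3W, and 1 without library 2 of FH. With scaling to total counts, under which the median of all genes was -0.84, 48 members were called lower and 0 higher, where 47.2% of all genes were called lower and 8.05% higher, and the fold changes turned to -0.22 for Rpl7l1 and -0.29 for Rpl7a. Hepatocyte markers summed to 216000 and 179000 CPM in LBDXL 3W against 35600 and 4890 in BM 3W, and 9 of 10 rose. Under TMM 9 of 10 stellate and fibroblast markers, 6 of 8 Kupffer and macrophage markers and all 7 tested cholangiocyte markers fell. In each of these 3 lists 0 rose. The part of these markers in these values was not tested.

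In BM 3W Yap-/- against BM 3W Rpl7l1 was the 1 member that rose and 0 fell (edgeR, adjusted p of 0.05), where 15% of all genes rose and 16.6% fell, and the median was 0.08 for the members and -0.03 for all genes. The libraries of 13 members lay wholly above BM 3W and those of 6 wholly below, where 33.8% and 37.3% of all genes did. Rpl7l1 had 55.2 and 78.0 CPM in BM 3W Yap-/- against 41.1 and 47.7 in BM 3W (0.58 ± 0.20, adjusted p = 0.0458, edgeR), with no overlap. The call was lost without any BM 3D, BM 3W, FH Yap-/- or FH library or library 2 of BM 3W Yap-/-, and 2 members were called without either LBDXL 3W library. With scaling to total counts Rpl7l1 turned to -0.06, and 18 members were called lower and 0 higher, where 35.8% of all genes were called lower and 5.66% higher. The library numbers went opposite ways, with a members' median of -0.11 for library 1 and 0.20 for library 2. With the library number as a block among cultured libraries, a fit chosen after seeing the data, 4 members were called higher, where 20.4% of all genes were, and 1 in the interaction with fresh hepatocytes, where 13.1% were.

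Single members of BM 3W Yap-/- showed the library difference most. Rplp1 had 88.4 and 422 CPM in BM 3W Yap-/- against 86.0 and 252 in BM 3W (0.59 ± 0.70, adjusted p = 0.542, edgeR). Rpsa had 541 and 675 CPM in BM 3W Yap-/- against 451 and 455 in BM 3W, without overlap and without a call (0.43 ± 0.25, adjusted p = 0.209, edgeR). Stellate and fibroblast markers summed to 540 and 491 CPM in BM 3W Yap-/- against 11000 and 15000 in BM 3W, and all 10 fell. Hepatocyte markers summed to 125000 and 104000 CPM against 35600 and 4890, and 7 of 10 rose and 1 fell. Cholangiocyte markers summed to 130 and 127 CPM against 4450 and 5170, and 2 of 7 tested fell and 0 rose. Of 8 Kupffer and macrophage markers 5 fell and 1 rose. The part of these markers was not tested.

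In fresh hepatocytes the family sat slightly lower with the Yap-/- label, and the test called no member. In FH Yap-/- against FH 69 of 80 members lay below 0 with a median of -0.15, where the median of all genes was 0, and 45 members lay wholly below FH and 6 wholly above, where 29.6% of all genes lay wholly below and 30.9% wholly above. The edgeR fit over all 7 groups called 0 members higher and 0 lower, where 0.489% of all genes rose and 0.454% fell. In that fit 0 members had an unadjusted p under 0.05, where 1245 of the 14100 tested genes did. DESeq2's Wald test called 0 members in either direction, where 1.44% of all genes rose and 1.16% fell. The libraries of fresh groups differed less than those of cultured ones, with a chi-square per degree of freedom over all genes of 4.04 in FH Yap-/- and 5.49 in FH against 68 to 235 in cultured groups. Fitted on FH Yap-/- and FH alone, 32 members were called lower and 1 higher, where 19.4% of all genes were called lower and 18.1% higher. Lymphocyte and erythroid markers summed to 24.2 and 22 CPM in FH Yap-/- against 174 and 174 in FH. In the fit over all groups 1 of 3 tested fell and 0 rose. No hepatocyte, stellate and fibroblast, Kupffer and macrophage, endothelial or cholangiocyte marker was called there. The part of these markers was not tested.

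Rpl12 had 108 and 109 CPM in FH Yap-/- against 129 and 134 in FH (-0.28 ± 0.19, adjusted p = 0.83, edgeR). Rplp0 had 297 and 322 CPM in FH Yap-/- against 364 and 363 in FH (-0.23 ± 0.32, adjusted p = 0.973, edgeR). Rpl35a had 58.5 and 56.2 CPM in FH Yap-/- against 77.5 and 76.7 in FH (-0.43 ± 0.20, adjusted p = 0.58, edgeR). These 3 genes lay wholly below FH by a margin wider than the gap between libraries of a group, and Rps12 lay wholly above it, with 93.3 and 92.1 CPM in FH Yap-/- against 84.5 and 82.4 in FH. The share of all counts on the family differed by -0.05 (log2, FH Yap-/- over FH), and this turned to 0.03 when the 20 most abundant other genes were left out of the total. The difference between the Yap-/- effects in BM 3W and in fresh hepatocytes, tested as an interaction, had a members' median of 0.21 and called 0 members higher and 0 lower, where 8.04% of all genes were called higher and 8.84% lower (edgeR). An unadjusted p under 0.05 was found there for 2 members and for 4562 of the 14100 tested genes (edgeR). DESeq2 called 1 member higher in the interaction, where 9.46% of all genes were.

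Changes of the mix inside the family were tested by replacing the library size with the summed counts of the core members, which is free of the scaling to all genes. Against FH, Rpl12 was higher within the family by 0.65 in BM 1D (adjusted p = 0.028, edgeR) and 0.55 in BM 3W (adjusted p = 0.0444). Rps12 was higher by 0.59 in BM 1D (adjusted p = 0.026, edgeR), 0.83 in BM 3D (adjusted p = 0.00622) and 0.61 in BM 3W (adjusted p = 0.018). The ribosome is built with equal numbers of these proteins, and these values are mRNA shares.

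Rpl35a was lower within the family in all 4 comparisons with FH, by -0.62 in BM 1D (adjusted p = 0.0213, edgeR), -0.89 in BM 3D (adjusted p = 0.0044), -0.75 in BM 3W (adjusted p = 0.00676) and -0.82 in LBDXL 3W (adjusted p = 0.0145). Rps27 was lower by -0.86 in BM 3D (adjusted p = 0.00947, edgeR) and -0.80 in LBDXL 3W (adjusted p = 0.0255). Rps27l was lower by -0.82 in BM 1D (adjusted p = 0.023, edgeR) and -0.92 in BM 3W (adjusted p = 0.0107), and Rpl7l1 by -0.48 in BM 3W (adjusted p = 0.0491). All of these share the FH libraries.

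In all, 4 of 80 members departed from the family in BM 1D, 3 in BM 3D, 5 in BM 3W and 2 in LBDXL 3W. On this scale 10% of all genes were called higher and 35.6% lower in BM 1D, 16.5% and 21.8% in BM 3D, 32.4% and 23.9% in BM 3W, and 9.53% and 9.11% in LBDXL 3W. The counts were 0 in BM 1D without either FH library, 1 in BM 3D without library 1 of FH, 1 in BM 3W without library 2 of FH, and 0 in LBDXL 3W without either FH library or library 1 of LBDXL 3W. In LBDXL 3W against BM 3W, where 16.8% of all genes were called higher and 23.2% lower on this scale, Rps27l was higher by 0.81 (adjusted p = 0.0269, edgeR) and Rps15a lower by -0.60 (adjusted p = 0.0372), and neither was called without either BM 3W library or library 2 of LBDXL 3W. This edgeR test called 0 members in BM 3D against BM 1D, where 13% of all genes were called higher and 0.617% lower. It called 0 in BM 3W against BM 3D, where 15.4% were called higher and 4.72% lower. It also called 0 in BM 3W Yap-/- against BM 3W (11.6% and 15.7% of all genes) and in FH Yap-/- against FH (0.475% and 0.298%).

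Members differed in how closely they followed the family. Over the 14 libraries the log2 CPM of Rpl6, Rpl18 and Rpl14 had a Pearson r of 0.98 with the summed core members, the closest of all. Rpl6 had 352 and 374 CPM in BM 1D libraries, 267 and 246 in BM 3D libraries and 206 and 217 in BM 3W libraries. It had 216 and 280 CPM in BM 3W Yap-/- libraries, 215 and 249 in LBDXL 3W libraries, 192 and 206 in FH Yap-/- libraries and 213 and 208 in FH libraries. Like the sum, Rpl6 was highest in both BM 1D libraries. The 3 least alike were Rps26 with an r of 0.40, Rpl21 with 0.23 and Rps27l with 0.20, and Rps26 and Rpl21 are among the members with a larger share in library 1 of every cultured group. Members and sum come from the same libraries, so r is a description.

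Levels per length, as the authors' FPKM, spanned a wide range although the ribosome holds these proteins in nearly equal numbers. Among the highest means over the 7 groups were 1070 FPKM for Rpl41, 594 for Rps2, 582 for Rpl35 and 535 for Rps26. The lowest among tested members were 17.9 FPKM for Rpl21, 18.5 for Rpl22, 20 for Rps15a, 22.5 for Rpl7l1 and 23.5 for Rps27l. Counts relative to FPKM, read as a length, gave 292 bases for Rpl41, 5850 for Rps15a, 4662 for Rpl22 and 3650 for Rps27l. The main transcripts have 582, 640, 474 and 499 bases in the same order, so for these genes the values are not the lengths of those transcripts. For some other members the value lay close to the transcript, with 677 against 677 bases for Rpl24 and 1883 against 1938 for Rpsa. For Rps27l the relation also varied by library. It had 1674 counts at 18.6 FPKM in library 1 of BM 1D and 2072 at 35.5 FPKM in library 2 of LBDXL 3W. Rpl41, which encodes the smallest protein of the family, stood highest with few counts per FPKM, while Rps15a, Rpl22 and Rps27l stood low with many. Ribosomal protein genes have many processed pseudogenes, and the sources used here do not say how reads shared with them were counted, so levels of single members are uncertain.

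Rpl41 had 371 and 370 CPM in BM 1D against 225 and 244 in FH, and rose (0.66 ± 0.21, adjusted p = 0.0259, edgeR). Rps2, a small-subunit protein near the mRNA entry, had 569 and 541 CPM in BM 1D against 382 and 412 in FH, without overlap and without a call (0.48 ± 0.35, adjusted p = 0.291, edgeR). Rps15a, low per length, rose at 1 day (1.28 ± 0.22, adjusted p = 0.0011, edgeR).

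The paralogs are near copies that can replace their parent in some ribosomes or have duties outside it. Rps27l stood at 3.50 and 6.50% of the FPKM of Rps27 in BM 1D libraries, 8.91 and 10.2% in BM 3D libraries and 3.54 and 5.10% in BM 3W libraries. It stood at 8.11 and 8.19% in BM 3W Yap-/- libraries, 7.74 and 13.8% in LBDXL 3W libraries, 11.5 and 8.14% in FH Yap-/- libraries and 5.21 and 5.88% in FH libraries. The ratio was higher in both BM 3D, BM 3W Yap-/-, LBDXL 3W and FH Yap-/- libraries than in both FH libraries, and lower in both BM 3W libraries. In counts the ratio was between 63.2 and 238%, as Rps27l had more counts per FPKM than Rps27.

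Rpl22l1, a paralog that can stand in for Rpl22, had 23.4 and 41.6 CPM in BM 1D against 14.2 and 16.2 in FH (1.09 ± 0.58, adjusted p = 0.153, edgeR). Rpl22 had 117 and 109 CPM in BM 1D against 87.0 and 95.8 in FH (0.31 ± 0.17, adjusted p = 0.165, edgeR). Neither passed the test. The FPKM of Rpl22l1 were 126 and 339% of those of Rpl22 in BM 1D libraries, 218 and 411% in BM 3D libraries and 154 and 329% in BM 3W libraries. They were 94.3 and 212% in BM 3W Yap-/- libraries, 67.2 and 198% in LBDXL 3W libraries, 65.7 and 113% in FH Yap-/- libraries and 104 and 100% in FH libraries. The ratio was higher in library 2 of every group but FH, and the libraries of BM 3W Yap-/-, LBDXL 3W and FH Yap-/- lay on both sides of FH.

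Rpl7l1 stood between 4.46 and 8.17% of the FPKM of Rpl7 over the 14 libraries, and Rpl7 had 546 and 511 CPM in BM 1D against 338 and 334 in FH (0.65 ± 0.26, adjusted p = 0.0595, edgeR). Rpl7l1 had 94.4 and 77.8 CPM in BM 1D against 61.3 and 65.1 in FH (0.45 ± 0.20, adjusted p = 0.093, edgeR). Both lay wholly above FH without a call, so that their ratio at 1 day, 5.55 and 4.94% in BM 1D against 5.84 and 6.47% in FH, stayed close to FH.

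Of the genes beside the family whose proteins sit on the small subunit, Rack1 rose at 1 day and Fau did not pass the test. Rack1, the scaffold on the small-subunit head, had 443 and 625 CPM in BM 1D against 207 and 215 in FH (1.34 ± 0.39, adjusted p = 0.0178, edgeR). Fau, which makes a small-subunit protein, had 117 and 212 CPM in BM 1D against 100 and 99.0 in FH (0.73 ± 0.44, adjusted p = 0.207, edgeR).

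Of 39 tested ribosome assembly factors of 40 listed, 27 rose and 0 fell in BM 1D against FH with a median of 1.16 (37 and 0 with total counts). Of all genes 23.6% rose and 20.2% fell there under TMM. With total counts 50.1% of all genes rose, and 1351 of 14100 fell. The 3 with the smallest p were Nhp2, part of the box H/ACA particle (1.75 ± 0.22, adjusted p = 0.00014, edgeR), Tsr1, which acts in small-subunit maturation (1.96 ± 0.25, adjusted p = 0.000172, edgeR), and Rrp12, which acts in export of pre-ribosomes (1.94 ± 0.26, adjusted p = 0.000219, edgeR). At 3 days 9 rose and 0 fell with a median of 0.52, where 22.5% of all genes rose and 17.9% fell, so the share of rises was close to that of all genes. At 3 weeks in BM 0 rose and 7 fell with a median of -0.22, where 33% of all genes rose and 26.1% fell. With total counts 27 rose and 0 fell, where 65.8% of all genes rose and 1364 of 14100 fell. Among the 7 were Nop10 (-1.53, and -0.23 with total counts), Nop16 (-1.0, turning to 0.29) and Gtpbp4 (-1.15, turning to 0.13). In BM 3W against BM 3D 13 fell and 0 rose with a median of -0.78, where 10.9% of all genes fell and 13.5% rose. With total counts 1 fell there, where 704 of 14100 genes fell.

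Some translation factors carry the same tract in their mRNA, and the list used here also holds genes of other kinds, such as Hnrnpa1 and Nap1l1. Of 27 tested, 12 rose and 0 fell in BM 1D against FH with a median of 0.64, where 23.6% of all genes rose and 20.2% fell. With total counts 26 rose and 0 fell, where 50.1% of all genes rose and 1351 of 14100 fell. The 3 with the smallest p under TMM were Eif3d (1.06), Hnrnpa1 (1.93) and Eef1g (1.46). In BM 3W against FH 1 rose and 6 fell with a median of -0.39, where 33% of all genes rose and 26.1% fell. With total counts 21 rose and 0 fell, where 65.8% of all genes rose and 1364 of 14100 fell. Among 16 regulators of these mRNAs, 5 rose and 5 fell in BM 1D against FH (9 and 1 with total counts), beside the values of all genes given for BM 1D under each scaling. Deptor, an inhibitor of mTOR, fell with the smallest p of the list (-4.28 ± 0.30, adjusted p = 8.3e-06, edgeR). Eif4ebp1, the mTORC1-controlled inhibitor of cap binding, rose (2.53 ± 0.41, adjusted p = 0.000686, edgeR). Rps6kb2, an S6 kinase, fell under TMM (-0.99 ± 0.20, adjusted p = 0.00269, edgeR), but had -0.06 with total counts (adjusted p = 0.815, edgeR).

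Mitochondrial ribosomal proteins, made in the cytosol for a separate ribosome, had other medians than the cytosolic ones. Of 77 tested, 7 rose and 15 fell in BM 1D against FH with a median of -0.20, where 23.6% of all genes rose and 20.2% fell. With total counts 35 rose and 0 fell, where 50.1% of all genes rose and 1351 of 14100 fell. In BM 3D 2 rose and 24 fell with a median of -0.49, where 22.5% of all genes rose and 17.9% fell. With total counts 21 rose and 1 fell, where 53.7% of all genes rose and 1038 of 14100 fell. In BM 3W 1 rose and 59 fell with a median of -1.04, where 33% of all genes rose and 26.1% fell. But with total counts, where the median of all genes was 1.46, 10 rose and 2 fell. On that scale 65.8% of all genes rose and 1364 of 14100 fell. The 3 with the smallest p were Mrps5 (-1.95, and -0.67 with total counts), Mrpl39 (-1.50, and -0.21) and Mrpl15 (-1.91, and -0.62). In LBDXL 3W against BM 3W 47 rose and 0 fell with a median of 0.87, where 21.1% of all genes rose and 23.7% fell. In BM 3W Yap-/- against BM 3W 40 rose and 0 fell with a median of 0.82, where 15% of all genes rose and 16.6% fell. These comparisons share the BM 3W libraries. With total counts 2 rose and 3 fell in LBDXL 3W, where 8.05% of all genes rose and 47.2% fell. In BM 3W Yap-/- 2 rose and 2 fell with total counts, where 5.66% of all genes rose and 35.8% fell. The cytosolic members had medians of 0.07 and 0.08 in the same comparisons.

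**Figure D5:**
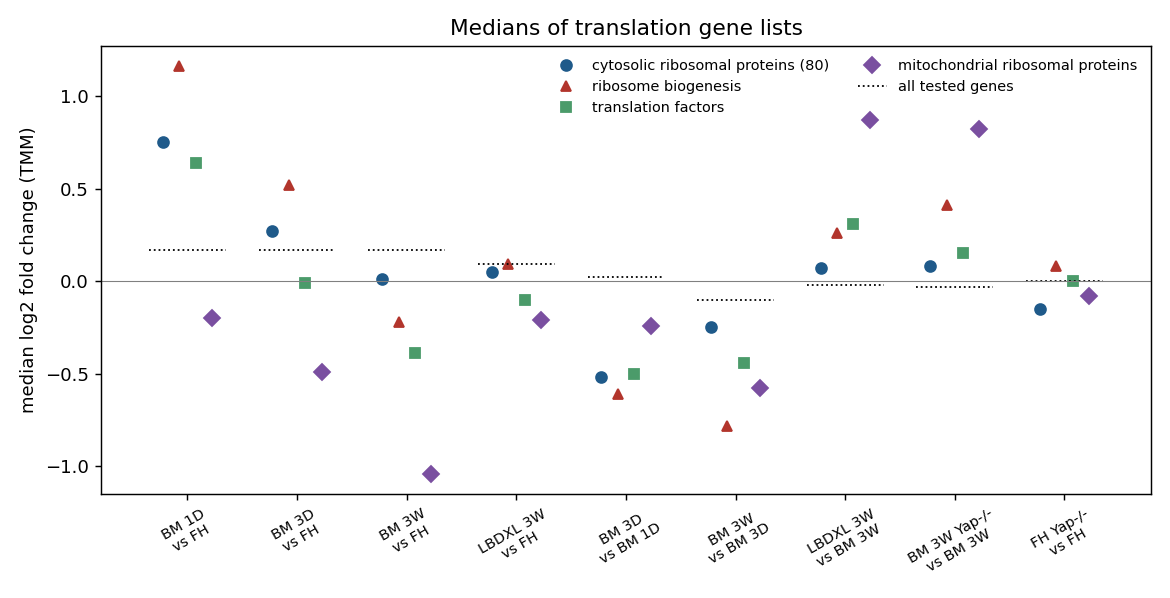
Median log2 fold change (TMM scaling) of cytosolic ribosomal proteins, mitochondrial ribosomal proteins, ribosome assembly factors and a list of mostly translation factors in 9 comparisons, with all tested genes as dotted lines. Cytosolic ribosomal proteins reach 0.75 and assembly factors 1.16 in BM 1D against FH, while mitochondrial ribosomal proteins lie at -1.04 in BM 3W against FH and 0.87 in LBDXL 3W against BM 3W (0.24 and 0.02 with total counts).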

How the data were processed

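Raw counts and FPKM values of the 14 libraries were deposited by the authors as tables with genes in rows. Per the labels, libraries were made with a stranded TruSeq mRNA kit from RNeasy RNA and sequenced on a HiSeq4000. Trimmomatic, HISAT2, Cufflinks, HTSeq, DESeq and the GRCm38.p6 build are listed in the submitters' processing notes, without versions. The sources used here do not say whether counting used strand or how reads shared with pseudogenes were counted. All columns matched a sample (0 unmapped), and 27 gene symbols altered by a spreadsheet were restored.

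From the deposited counts, edgeR 4.0.16 (R 4.3.3; filterByExpr by group, TMM, glmQLFit and glmQLFTest) was fitted on all 14 libraries with a mean per group and no replicate block, with Benjamini-Hochberg adjustment over 14100 genes and a threshold of 0.05. Errors after ± are standard errors derived from that fit. The authors' FPKM were used for levels per length, paralog ratios and as an alternative (limma 3.58.1 on log2 of FPKM plus 1). Other alternatives were DESeq2 1.42.0, its size factors, total counts, no filter, TMM without the 20 most abundant genes, fits on the compared groups alone, library number as a block, and leaving out each library. Fits were tested on simulated data. Members and gene lists were chosen with earlier results of these data known. Named members are the paralogs with their parents, Rps6, Rpl5, Rpl11, Rpsa, Rps3 and the stalk genes, the 5 highest and 5 lowest by FPKM, the 3 most and 3 least like the family, and up to 3 rises and 3 falls per comparison among called members without overlap. Members outside this rule, such as Rps29, Rps24, Rpl23, Rpl15 and Rpl13a, were named after their values were seen. Some genes that this rule names are not reported here. Sequences are from RefSeq tables.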

Additional observations from a re-analysis of the deposited data

How the results depend on the processing

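The counts of called members depend on the scaling, the filter and the libraries in the fit, and with 2 libraries per group the test has little room. Alternatives whose values are within 1.5 times of those above are not repeated. The fits with a block among cultured libraries, with members left out of TMM, and the family-scaled fit without single libraries, were chosen after seeing the data. The cause of a move was not tested. For the fits that left out a library, those without a filter and most with a block, the calls over all genes are not given. There a lost or gained call of members cannot be told from a change in all genes.

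Leaving out each library gave 10 to 50 rises in BM 1D against FH, 1 to 6 rises and 0 to 1 falls in BM 3D against FH, and 0 to 2 rises and 1 to 5 falls in BM 3W against FH. It gave 0 to 2 falls in LBDXL 3W against FH, 0 to 5 in BM 3D against BM 1D and 0 to 2 in BM 3W against BM 3D. It gave 0 to 3 rises in LBDXL 3W against BM 3W and 0 to 2 in BM 3W Yap-/- against BM 3W. The members called against the family's sum were 0 to 5 in BM 1D, 1 to 4 in BM 3D, 1 to 6 in BM 3W and 0 to 2 in LBDXL 3W against FH, 0 to 3 in LBDXL 3W against BM 3W and 0 to 1 in BM 3W Yap-/- against BM 3W. Every leave-one-out fit of FH Yap-/- against FH and of the interaction called 0 members.

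Same-numbered libraries deviated together with an r over 0.1 in 5 of 21 pairs of groups (lowest -0.04, highest 0.49). These 5 were all pairs of cultured groups (0.19 to 0.49), and the main fit did not take the numbers as pairs. For the members alone the library differences of the cultured groups went together, with an r of 0.33 to 0.97 over 10 pairs of groups. With the number as a block, LBDXL 3W against FH had 1 fall, BM 3W against BM 3D 2 falls and BM 3W Yap-/- against BM 3W 2 rises. With the block among cultured libraries, BM 3D against BM 1D had 19 falls, BM 3W against BM 3D 6 falls, LBDXL 3W against FH 1 fall, BM 3W Yap-/- against BM 3W 4 rises and the interaction 1 rise.

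Total counts gave 79 rises in BM 1D, 75 rises and 0 falls in BM 3D, 78 rises and 0 falls in BM 3W and 11 rises and 0 falls in LBDXL 3W against FH. They gave 1 fall in BM 3D against BM 1D, 0 falls in BM 3W against BM 3D, 48 falls and 0 rises in LBDXL 3W against BM 3W, and 18 falls and 0 rises in BM 3W Yap-/- against BM 3W. Of 14100 genes 178 fell in BM 3D against BM 1D and 704 in BM 3W against BM 3D with total counts. Size factors gave 2 falls in BM 3D and 2 in BM 3W against FH, 1 rise and 2 falls in LBDXL 3W against BM 3W, and 0 rises in BM 3W Yap-/- against BM 3W. Of all tested genes 2636 fell in BM 3D and 3378 in BM 3W against FH with size factors. Against BM 3W 2462 rose and 3689 fell in LBDXL 3W, and 1673 rose in BM 3W Yap-/-. DESeq2's test gave 2 falls in BM 3D, 4 rises in BM 3W and 1 rise in LBDXL 3W against FH, 30 falls in BM 3D against BM 1D, 5 in BM 3W against BM 3D, 3 in LBDXL 3W against BM 3W and 1 in BM 3W Yap-/- against BM 3W, and 1 rise in the interaction. Of all tested genes it called 2886 lower in BM 3D, 4857 higher in BM 3W and 1945 higher in LBDXL 3W against FH. Against BM 3W it called 3739 lower in LBDXL 3W and 2914 lower in BM 3W Yap-/-. Without the 20 most abundant genes in TMM, BM 3W had 1 rise against FH and 3 falls against BM 3D.

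The compared groups alone gave 12 rises in BM 3D and 1 fall in LBDXL 3W against FH, 0 falls in BM 3D against BM 1D and in BM 3W against BM 3D, 0 rises in LBDXL 3W and in BM 3W Yap-/- against BM 3W, 1 rise and 32 falls in FH Yap-/- against FH and 2 rises in the interaction. No filter gave 2 rises in BM 3D, 0 rises and 2 falls in BM 3W and 1 fall in LBDXL 3W against FH, 2 falls in BM 3D against BM 1D, 2 in BM 3W against BM 3D and 0 rises in BM 3W Yap-/- against BM 3W.

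On FPKM, limma with a pseudocount of 0.1, of 1, and of 1 without a filter gave 77, 77 and 75 rises in BM 1D, 70, 70 and 65 rises and 0 falls in BM 3D, 77, 77 and 77 rises and 0 falls in BM 3W and 18, 16 and 13 rises and 0 falls in LBDXL 3W against FH. It gave 1 fall in BM 3D against BM 1D, 0 in BM 3W against BM 3D, 44, 45 and 40 falls and 0 rises in LBDXL 3W against BM 3W, 21, 22 and 25 falls and 0 rises in BM 3W Yap-/- against BM 3W, and 10, 11 and 13 falls in the interaction. The shares of all genes called by limma are not given here. These counts can therefore not be told from a shift of all genes.

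The log2 share of counts over FH moved to 1.51 in BM 1D and 1.01 in BM 3W, and reversed to 0.03 in FH Yap-/-, without the 20 most abundant other genes. As a percent of summed FPKM it moved to 1.57 in BM 3W and reversed to 0.03 in FH Yap-/-. The log2 ratio of Rps27l to Rps27 in BM 3D over FH was 0.49 from counts. With total counts, then limma with a pseudocount of 1, of 0.1, and of 1 without a filter, fold changes reversed to 0.29, 0.18, 0.18 and 0.18 for Rpl35a in BM 3D, 0.51, 0.52, 0.53 and 0.52 for Rpl35a, 0.34, 0.64, 0.67 and 0.64 for Rps27l and 0.75, 0.89, 0.89 and 0.89 for Rps25 in BM 3W, and 0.86, 1.03, 1.07 and 1.03 for Rps27l in BM 1D, all against FH. Against BM 3W they reversed to -0.22, -0.18, -0.18 and -0.18 for Rpl7l1 and -0.29, -0.23, -0.23 and -0.23 for Rpl7a in LBDXL 3W, and -0.06, -0.04, -0.04 and -0.04 for Rpl7l1 in BM 3W Yap-/-. Rps27l in BM 1D against FH lay between -0.35 and 0.17 over the fits that left out a library, and reversed without library 1 of BM 1D (0.17) and without library 2 of FH (0.02).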
